A study of Mus musculus with 15 samples.

Results

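The glycolysis genes described here are 10 listed genes, Slc2a1, Hk1, Hk2, Aldoa, Gapdh, Pgk1, Eno1, Pkm, Ldha and Ldhb, in the renal transcriptome of 15 mice. They were chosen by name. Each Ensembl transcript was mapped to a gene symbol with GENCODE release 21 for mouse, and the values of a gene's transcripts were summed in each mouse. A level is given as summed FPKM, fragments scaled by transcript length and by sequencing depth, so that levels of different genes can be set side by side. Of the 10 genes, 9 had a transcript listed in all 15 files, and all 9 passed the filter of at least 1 FPKM in at least 5 mice, among 12366 genes tested of 13933 with a shared transcript. Hk2 had no transcript in the files used here and is not analysed.

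All mice were wild-type C57BL/6 males, bought at 8 weeks of age, and the tissue was kidney. The 5 Control mice received saline for 28 days. The 5 Ang II mice received angiotensin II, the vasoconstrictor peptide of the renin-angiotensin system, at 500 ng/kg/min from subcutaneous osmotic pumps over the same 4 weeks. The 5 Ang II + QDG mice received the same infusion and Qingda Granule (QDG), a Chinese herbal formula for hypertension, by gavage at 1.145 g/kg/day, while the other groups were given water by gavage. RNA came from renal tissue with no region named and was not sorted by cell, so that fewer cells of a type and less RNA per cell cannot be told apart.

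Glycolysis splits glucose into pyruvate with a net gain of ATP, and lactate dehydrogenase interconverts pyruvate and lactate. In the kidney the pathway is unevenly spread. Proximal tubule cells rely mainly on the oxidation of fatty acids and other fuels and make glucose by gluconeogenesis, whereas distal segments and the medulla consume glucose and release lactate. Hypoxia-inducible factors, the oxygen-sensing transcription factors that bind the core letters ACGTG or GCGTG, are known activators of many glycolytic genes.

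The sequences below show the parts of these genes on which the transcript results turn. Pkm encodes pyruvate kinase in 2 forms that differ in 1 exon, PKM1 and PKM2. The exon of transcript Pkm-202 (PKM1) lies at chr9:59675029-59675195 and that of Pkm-201 (PKM2) at chr9:59675568-59675734, both on the + strand of GRCm38, and each is 167 bases long. In a position-by-position comparison 103 bases were identical and 64, in capitals, differed.

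PKM1 exon: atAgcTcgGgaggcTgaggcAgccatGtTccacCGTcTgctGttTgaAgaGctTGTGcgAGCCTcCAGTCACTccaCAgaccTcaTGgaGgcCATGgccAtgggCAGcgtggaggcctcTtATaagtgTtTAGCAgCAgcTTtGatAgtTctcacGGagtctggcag

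PKM2 exon: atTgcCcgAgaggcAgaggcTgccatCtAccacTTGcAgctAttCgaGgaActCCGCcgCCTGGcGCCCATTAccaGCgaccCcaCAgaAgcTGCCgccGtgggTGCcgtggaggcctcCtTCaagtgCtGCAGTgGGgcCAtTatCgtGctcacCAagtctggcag

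The next sequences are the 250 bases before a RefSeq start site (GRCm38.p6), shown for both genes whose Ang II and Control mice did not overlap, Aldoa and Pgk1, and for the pair of Ldha start sites between which its transcripts were divided. Capitals mark the core letters ACGTG or GCGTG on either strand, so that CACGT and CACGC are the same motifs on the other strand and CACGTG holds 2 overlapping matches. The Aldoa window is chr7:126799255-126799504 (− strand), directly before the start of its main transcript Aldoa-201. The Pgk1 window is chrX:106186850-106187099 (+ strand), directly before Pgk1-201. The Ldha windows, on the + strand, are chr7:46845554-46845803 before the first start site and chr7:46846832-46847081 before the later one, where Ldha-210 begins.

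Aldoa: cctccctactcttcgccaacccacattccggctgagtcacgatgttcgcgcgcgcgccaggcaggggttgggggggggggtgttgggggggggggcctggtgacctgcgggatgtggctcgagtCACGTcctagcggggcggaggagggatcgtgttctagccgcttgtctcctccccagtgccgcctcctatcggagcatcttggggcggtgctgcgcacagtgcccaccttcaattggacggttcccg

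Pgk1: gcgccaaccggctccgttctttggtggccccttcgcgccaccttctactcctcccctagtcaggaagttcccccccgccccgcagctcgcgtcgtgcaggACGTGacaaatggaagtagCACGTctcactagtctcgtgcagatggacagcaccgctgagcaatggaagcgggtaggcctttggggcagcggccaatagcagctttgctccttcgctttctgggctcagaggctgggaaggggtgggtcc

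Ldha, first start site: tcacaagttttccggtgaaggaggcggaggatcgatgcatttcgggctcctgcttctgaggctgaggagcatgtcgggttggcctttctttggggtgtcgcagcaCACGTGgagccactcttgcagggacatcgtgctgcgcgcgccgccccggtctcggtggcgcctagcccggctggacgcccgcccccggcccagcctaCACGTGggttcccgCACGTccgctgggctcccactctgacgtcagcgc

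Ldha, later start site: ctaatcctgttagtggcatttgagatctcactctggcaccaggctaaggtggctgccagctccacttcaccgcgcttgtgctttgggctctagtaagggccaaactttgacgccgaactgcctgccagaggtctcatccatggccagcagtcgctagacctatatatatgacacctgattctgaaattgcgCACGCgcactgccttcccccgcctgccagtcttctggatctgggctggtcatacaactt

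A motif was present in 14 of the 17 windows of the listed genes (82.4%), and each of the 10 genes had at least 1 window with it. Among all 32851 promoter windows of the same length 38.6% held it, and among 27025 genes 41.5% had such a window. Some windows of Eno1 and of Aldoa overlap and hold the same copies, so that windows are not independent. With 17 windows for 10 genes, against 32851 for 27025, a listed gene also had more windows in which a match could fall. The first Ldha window held 5 matches and the later one 1. These are matches of letters, and binding was not measured.

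The depth implied by the values was 68900000 to 81370000 reads or fragments per mouse, with a median of 70000000 in Ang II + QDG against 79380000 in Control and 79100000 in Ang II, and the median implied number per gene ran from 1133 for Gapdh to 73786 for Ldhb. Of 8 proximal tubule markers, 8 were measured, and Slc34a1, the sodium-phosphate cotransporter of that segment, stood at 2256 FPKM on average, so that the labelled tissue was met by its markers. The files used here list none of the 5 skeletal muscle markers, and muscle RNA was therefore not assessed. Slc12a1, the sodium-potassium-chloride cotransporter of the thick ascending limb, was at 17.99 and 42.12 FPKM in Ang II 2 and 5 but at 68.04 to 230.0 in the other 13 mice. The same 2 mice had the highest Slc12a3, the thiazide-sensitive cotransporter of the distal convoluted tubule (141.9 and 130.3 FPKM against 44.89 to 96.88), and a member's value without both is given where leaving them out ended a call, turned a direction or moved a value by over 1.5 times. Control 2 and Ang II 1 had the highest summed adipocyte markers (104.2 and 174.2 FPKM), the fatty acid binding protein gene Fabp4 being at 96.58 and 152.9 FPKM in them against 23.92 to 66.57 in the other mice. The same 2 mice were the highest of their groups in Hk1, Pkm, Aldoa and Slc2a1. Without both, Aldoa remained the only member called in Ang II vs. Control (log2 fold change 0.15; limma adjusted p = 0.0491), while Hk1 was at 0.64 (0.0621), Slc2a1 at 0.22 (0.21) and Pkm at 0.15 (0.45).

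Per length of transcript, Ldhb was the most abundant of the 9 measured genes, with a mean over 15 mice of 767.8 FPKM. It was followed by Aldoa (516.9), Eno1 (402.6), Ldha (327.3) and Pgk1 (310.1), then by Pkm (111.1), Hk1 (27.38) and Slc2a1 (14.46). Gapdh was last at 3.908, where the files used here hold only a retained-intron transcript. Ldhb lay above Aldoa in every mouse, since its lowest value (689.8) exceeded the highest of Aldoa (583.5). The neighbours Aldoa and Eno1, Eno1 and Ldha, and Ldha and Pgk1 overlapped in range, as did Hk1 and Slc2a1, whereas Pgk1 and Pkm, and Pkm and Hk1, did not. Together the 9 genes held 0.437% ± 0.00723 of all FPKM in Control, 0.487% ± 0.0113 in Ang II, then 0.451% ± 0.0111 in Ang II + QDG (SD, n = 5).

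**Figure D1:**
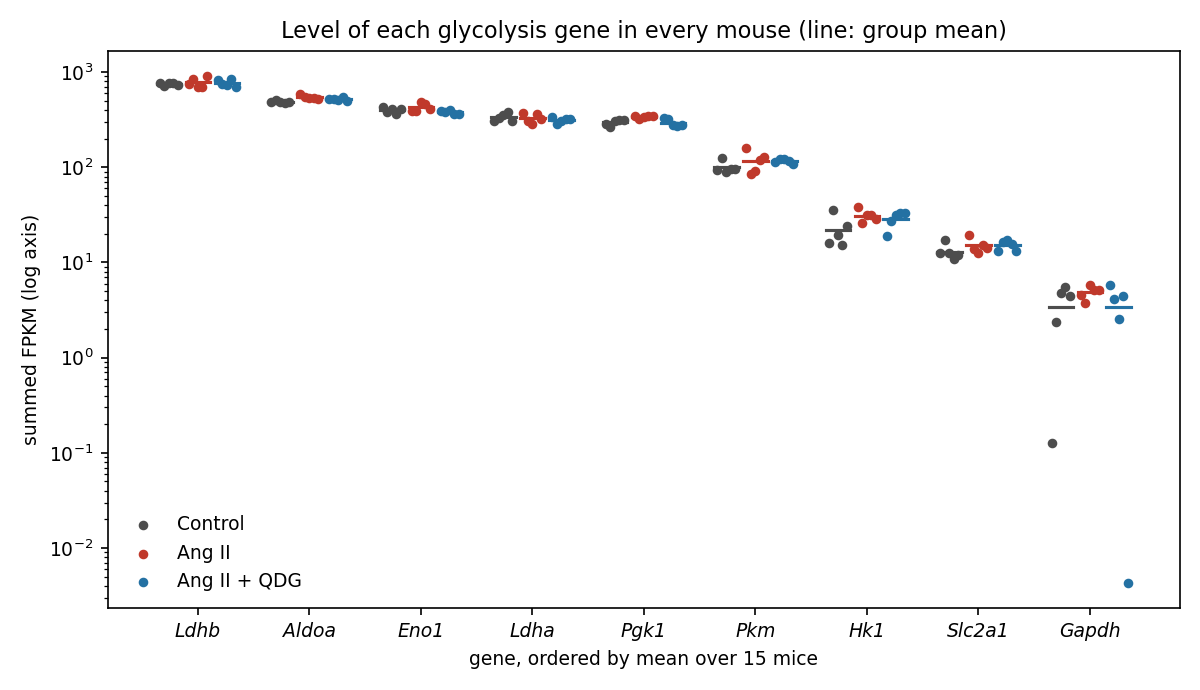
Summed FPKM of the 9 measured glycolysis genes in each of 15 mice, on a log axis, with genes ordered by mean level. Points are mice, coloured by group, and the short lines are group means. Levels span from about 768 FPKM for Ldhb to 3.91 for Gapdh, and differences between groups are small beside those between genes.

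The first comparison, Ang II vs. Control, asked what angiotensin II infusion changed. One gene of the 9, Aldoa, passed an adjusted p of 0.05 in limma (Benjamini-Hochberg over all genes tested), with a higher level in Ang II (4.95% of all genes were called in that direction), and none met the study's criterion of a fold change of at least 2 with p under 0.05. Across all 12366 genes the percentage called was 5.94% by the adjusted p and 1.04% by the study's criterion, so that 1 of 9 was near the background. The unadjusted p was under 0.05 for Aldoa, Pgk1 and Hk1, 3 of 9, against 22.7% of all genes. The log2 fold changes of 8 genes were above 0 and only Ldha was below, where 64.8% of all genes were above 0. The median was 0.19 beside 0.08 over all genes. It was 0.118 after quantile normalization and 0.103 after median scaling, beside −0.006 and −0.008 over all genes, and Ldhb turned below 0 in both. Of the 8, Gapdh was measured through a retained-intron transcript only, and Pkm was at −0.11 when its protein-coding transcripts alone were summed. Of all genes called, 83.3% were higher in Ang II, a share that was 46.0% after quantile normalization and 42.6% after median scaling.

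The second comparison, Ang II + QDG vs. Ang II, asked what QDG changed during the infusion. None of the 9 genes was called by limma's adjusted p (background 1.81%) or by the study's criterion (0.817%), and the unadjusted p was under 0.05 for Pgk1 and Eno1, against 16.4% of all genes. Here 7 log2 fold changes were below 0, with a median of −0.07 beside −0.02 over all genes. After quantile normalization 5 were below 0 and after median scaling 6, Ldhb turning in both and Ldha in the first. Against Control, Ang II + QDG had no call (background 0.129%; 0.728% by the study's criterion), and only Aldoa had an unadjusted p under 0.05, against 14.4% of all genes. The 3 comparisons share mice, so that a gene high in Ang II enters the first and the second with opposite signs.

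**Figure D2:**
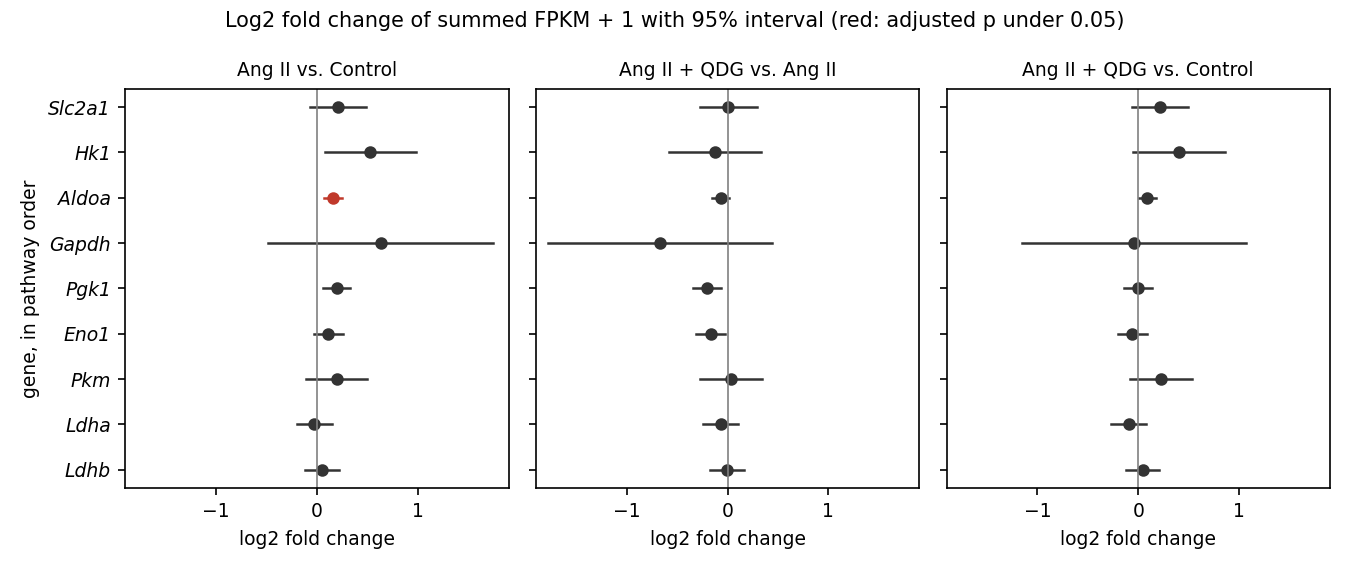
Log2 fold change of summed FPKM + 1 for the 9 measured glycolysis genes in the 3 comparisons, in the order of the pathway. Points are limma estimates and lines their 95% intervals; red marks an adjusted p under 0.05. Aldoa in Ang II vs. Control is the only gene marked, at 0.16, and the interval of Gapdh is the widest.

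Slc2a1 encodes GLUT1, a facilitative glucose transporter of the basolateral membrane. Its level was 13.01 ± 2.47 FPKM in Control, 15.18 ± 2.69 in Ang II, then 15.19 ± 1.89 in Ang II + QDG (SD, n = 5). The groups overlapped, and the log2 fold change in Ang II vs. Control was 0.21 (95% interval −0.07 to 0.49; limma adjusted p = 0.373). Without Ang II 1 it was 0.12. Control 2 stood at 17.29, above the other Control mice at 10.98 to 12.53.

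Hk1 and Hk2 encode hexokinases, which phosphorylate glucose and so trap it in the cell. Hk1 was at 15.86, 35.92, 19.66, 15.39 and 24.02 FPKM in Control 1 to 5. It was at 38.31, 26.04, 31.45, 31.32 and 28.63 FPKM in Ang II, and at 18.91, 27.38, 31.80, 33.09 and 32.88 FPKM in Ang II + QDG. Of the Control mice, 4 were below all Ang II mice and Control 2 was above 4 of them. Hk1 had the largest log2 fold change of the members measured through coding transcripts, 0.53 in Ang II vs. Control (SE 0.21; 95% interval 0.08 to 0.98), and it did not pass (limma adjusted p = 0.153). Without Control 2 the log2 fold change was 0.71 and the adjusted p from limma 0.0316. Under QDG the log2 fold change against Ang II was −0.13 (95% interval −0.58 to 0.33), and −0.24 without Ang II 2 and 5. Nearly all of Hk1 was 1 transcript, Hk1-202, with 97.7% of its level.

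Aldoa (ENSMUSG00000030695) encodes aldolase A, which splits fructose 1,6-bisphosphate into triose phosphates. It was at 480.1, 512.0, 481.2, 475.9 and 485.2 FPKM in Control and at 583.5, 548.8, 532.2, 540.7 and 518.5 FPKM in Ang II. The Ang II + QDG mice were at 519.2, 520.5, 515.3, 542.3 and 498.2 FPKM. Every Ang II mouse was above every Control mouse, by a margin of 518.5 against 512.0 at the closest, and the Ang II + QDG mice lay between and overlapped both. Groups did not overlap in this direction for 6.49% of all genes.

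Aldoa rose in Ang II vs. Control by a log2 fold change of 0.16 (SE 0.04; 95% interval 0.07 to 0.25; limma adjusted p = 0.0333), that is 11.9% by the group means. The call depended on single mice and on the scaling. The adjusted p was above 0.05 in 7 of 15 fits that each left out 1 mouse, namely Control 1, 3, 4 or 5 or Ang II 1, 2 or 4 (limma adjusted p 0.0555 to 0.0778). It was 0.377 after quantile normalization (log2 fold change 0.09), 0.31 after median scaling (0.07) and 0.085 without the variance trend, all from limma. Without both Ang II 2 and 5 it was 0.0922 (log2 fold change 0.18). With QDG the log2 fold change was −0.07 against Ang II (95% interval −0.16 to 0.02; limma adjusted p = 0.43) and 0.09 against Control (0.01 to 0.18; adjusted p = 0.317). Against Control it ran from 0.01 to 0.12 under the alternative settings (limma adjusted p 0.158 to 0.906). The main transcript Aldoa-201, with 90.7% of the level, had a log2 fold change of 0.17 in Ang II vs. Control and did not pass among 28812 transcripts (limma adjusted p = 0.0855).

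Some markers of other cells moved in the same comparison. Podocyte markers, of which 4 of 5 were measured, summed to 76.61 to 85.66 FPKM in Control, 103.2 to 129.9 in Ang II, then 100.4 to 127.5 in Ang II + QDG. In Ang II vs. Control all 4 were above 0 and 2 were called. Podxl, which encodes the podocyte surface protein podocalyxin, rose (log2 fold change 0.35; limma adjusted p = 0.0277). Endothelial markers, 5 of 5 measured, overlapped in their sums and summed to 45.44 to 73.72 FPKM in Control, 53.95 to 74.34 in Ang II, then 54.97 to 78.6 in Ang II + QDG, and 1 of the 5 was called in Ang II vs. Control. That was Ehd3, a membrane-trafficking protein of glomerular endothelium, which rose (0.51; limma adjusted p = 0.0286), while the log2 fold changes of the others ran from −0.37 for Emcn to 0.44 for Pecam1. Erythroid markers, 5 of 7 measured, summed to 544.6 to 1362 FPKM in Control, 1115 to 1943 in Ang II, then 1557 to 2818 in Ang II + QDG. The alpha-globin gene Hba-a1 was the only one of them called, in Ang II + QDG vs. Control (log2 fold change 1.17; limma adjusted p = 0.0257), and Hba-a2 (1.19) and Hbb-bt (1.19) met the study's criterion in Ang II vs. Control, as did Hba-a1, Hba-a2, Hbb-bs and Hbb-bt in Ang II + QDG vs. Control (1.08 to 1.31). Leaving out 1 mouse ended the call of Podxl in 5 of 15 fits (limma adjusted p 0.0523 to 0.0694), that of Ehd3 in 6 (0.056 to 0.0707) and that of Hba-a1 in 5 (0.0535 to 0.082). Quantile normalization and median scaling ended those of Podxl (0.121 and 0.0953) and Ehd3 (0.0781 and 0.0841). Proximal tubule markers summed to 6934 to 17940, 6949 to 8512 and 8794 to 13410 FPKM, distal nephron markers (8 of 8) to 1385 to 1859, 1156 to 1683 and 1535 to 2096, and limma's adjusted p called none of either list in any comparison (unadjusted p under 0.05: 5, 2 and 1 of 8 proximal and 1, 4 and 0 of 8 distal markers). At the study's criterion Kap, a protein of the proximal tubule, was lower in Ang II vs. Control (log2 fold change −1.12; adjusted p = 0.159 by limma) and higher with QDG against Ang II (1.39; 0.134), as was Slc12a1 (1.25; 0.215). Leukocyte markers (7 of 8) summed to 141.2 to 232.3, 113.8 to 157.2 and 111.2 to 340.1 FPKM. None was called by limma's adjusted p, while all 7 log2 fold changes were below 0 in Ang II vs. Control (median −0.39; unadjusted p under 0.05 for 1) and above 0 with QDG against Ang II (0.35; 1), comparisons that share the Ang II mice. The summed adipocyte markers (4 of 5) were at 26.51 to 104.2, 25.11 to 174.2 and 40.01 to 77.28 FPKM. The part of these cell types in the levels of the glycolysis genes was not tested.

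Gapdh encodes glyceraldehyde-3-phosphate dehydrogenase, the step that yields NADH, and its protein served as the loading control of the study's western blots. Of its transcripts the files used here hold Gapdh-213 alone, a retained-intron transcript at chr6:125161715-125165003, so that the summed value is not the level of the coding mRNA. It was at 0.1265 FPKM in Control 1 and 0.00434 in Ang II + QDG 5, and at 2.379 to 5.864 FPKM in the other 13 mice. The group means were 3.436 ± 2.18, 4.904 ± 0.783 and 3.383 ± 2.23 FPKM (SD, n = 5). The log2 fold change in Ang II vs. Control was 0.63 with a 95% interval of −0.48 to 1.75 (limma adjusted p = 0.514), and 0.20 without Control 1. With QDG against Ang II it was −0.67, and −0.20 without Ang II + QDG 5.

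Pgk1 encodes phosphoglycerate kinase 1, the first ATP-yielding step. It was at 282.2, 266.3, 306.8, 314.4 and 312.1 FPKM in Control and at 341.8, 323.7, 337.2, 342.5 and 347.1 FPKM in Ang II. With QDG it was at 326.8, 324.0, 276.5, 271.6 and 278.2 FPKM. All Ang II mice were above all Control mice, and the Ang II + QDG mice fell into 2 at the lower edge of the Ang II range and 3 within the Control range. The log2 fold change was 0.19 in Ang II vs. Control (SE 0.07; 95% interval 0.06 to 0.33; limma adjusted p = 0.0932) and −0.20 with QDG against Ang II (95% interval −0.34 to −0.06; adjusted p = 0.13). Neither passed. Between Ang II + QDG and Control it was −0.01 (95% interval −0.15 to 0.13).

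Eno1 encodes enolase 1, which forms phosphoenolpyruvate. It was at 424.8, 383.7, 408.3, 363.2 and 405.8 FPKM in Control, at 394.8, 393.6, 482.7, 467.5 and 410.0 in Ang II, and at 394.1, 380.1, 404.4, 362.8 and 363.7 in Ang II + QDG. Ang II 3 and 4 were the highest of all mice, while the other Ang II mice lay within the Control range, 1 of them above every Ang II + QDG mouse. The log2 fold change was 0.11 in Ang II vs. Control (95% interval −0.03 to 0.25; limma adjusted p = 0.354) and −0.17 with QDG against Ang II (95% interval −0.31 to −0.03; adjusted p = 0.215). The first was 0.07 without Ang II 3 and 0.17 without both Ang II 2 and 5. Its lowest value under the alternative settings was 0.02, and its highest adjusted p from limma there 0.927.

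Pgam1, phosphoglycerate mutase 1, catalyses the step between Pgk1 and Eno1 and belongs to the list of 21 other glycolytic enzymes, of which 13 were tested. It was the only one of these called in any comparison. Its level was 165.7 to 178.7 FPKM in Control, 194.7 to 197.6 in Ang II, then 153.1 to 175.9 in Ang II + QDG, and the Ang II mice overlapped neither other group. Pgam1 rose in Ang II vs. Control (log2 fold change 0.17, SE 0.04; limma adjusted p = 0.0265) and fell in Ang II + QDG vs. Ang II (−0.26, SE 0.04; adjusted p = 0.0132). The rise lost the call after quantile normalization (limma adjusted p = 0.28), median scaling (0.338), without the variance trend (0.0671) and without Control 1 or 3 or Ang II 2 or 5 (0.0547 to 0.0684). The fall held without each mouse in turn and lost the call only after quantile normalization (limma adjusted p = 0.059).

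**Figure D3:**
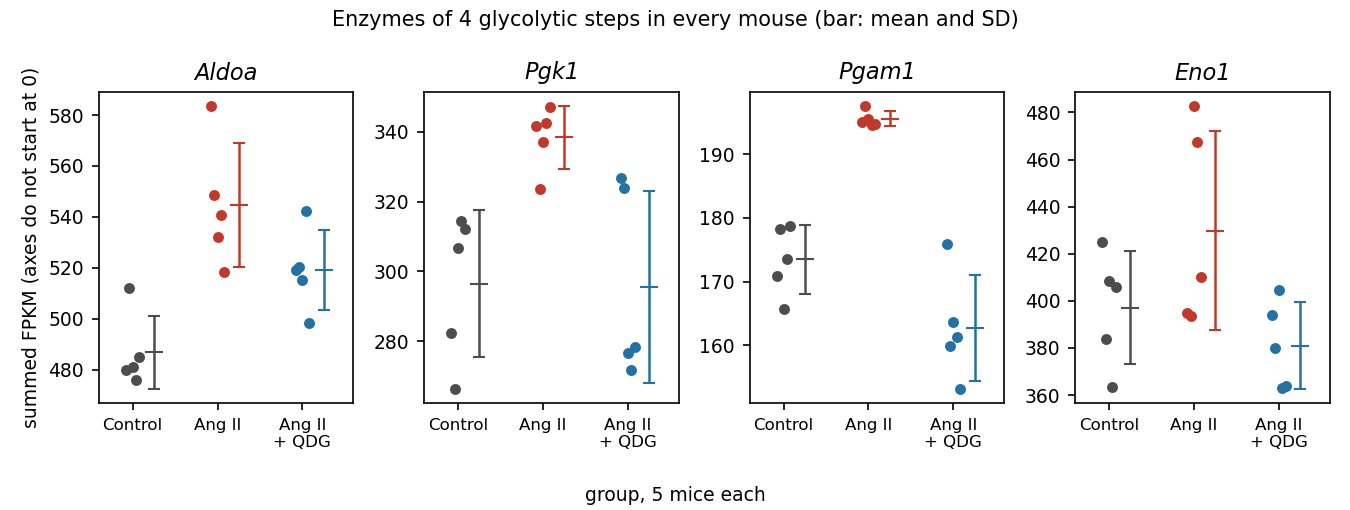
Summed FPKM of Aldoa, Pgk1, Pgam1 and Eno1 in each mouse, with the mean and SD of each group of 5 at the right; each panel has its own axis, which does not start at 0. The Ang II mice of Aldoa, Pgk1 and Pgam1 lie above all Control mice, and those of Pgam1 also above all Ang II + QDG mice.

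Pyruvate kinase, encoded by Pkm, forms pyruvate and ATP. Summed over its transcripts Pkm was at 99.95 ± 13.8 FPKM in Control, 116.6 ± 29.5 in Ang II, then 116.6 ± 6.18 in Ang II + QDG (SD, n = 5), and the groups overlapped. The log2 fold change in Ang II vs. Control was 0.19 (95% interval −0.11 to 0.50; limma adjusted p = 0.457), and it was 0.07 without Ang II 1 and 0.30 without Ang II 2. It was −0.11 when the protein-coding transcripts alone were summed. The difference lay in Pkm-205, a retained-intron transcript with 24.3% of the gene's mean level. Its last exon runs 886 bases into the intron and ends 2069 bases before the PKM1 exon shown above, so that it contains neither alternative exon. The sources name both rRNA depletion and a poly(A) step, and these capture unspliced RNA to different extents, so that what a retained-intron level stands for, in Pkm-205 and in Gapdh-213, depends on a step that was not settled here.

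Pkm-205 was at 17.321, 24.235, 18.102, 15.106 and 23.055 FPKM in Control and at 32.467, 44.478, 45.87, 30.914 and 25.052 FPKM in Ang II. The QDG-treated mice were at 23.823, 24.675, 27.274, 21.072 and 30.655 FPKM. No Ang II mouse overlapped the Control mice, although Ang II 5 was just above Control 2. Pkm-205 rose in Ang II vs. Control by a log2 fold change of 0.82 (SE 0.17; limma adjusted p = 0.0492 among 28812 transcripts, of which 0.691% were called) and was the only called transcript of the 28 that belonged to the listed genes. Limma's adjusted p called none of the 28 in Ang II + QDG vs. Ang II (0.0972% of all transcripts were called) or in Ang II + QDG vs. Control (0.0243%), where 6 and 3 had an unadjusted p under 0.05 (11.3% and 10% of all transcripts did). The adjusted p was above 0.05 without any 1 of 13 mice (0.0532 to 0.107), Control 2 and Ang II + QDG 4 being the exceptions, and after quantile normalization (0.0859) and median scaling (0.081), by limma. Under QDG, against Ang II, its log2 fold change was −0.45 (SE 0.17; limma adjusted p = 0.344).

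Other retained-intron transcripts of the listed genes were examined after these values were seen. Of 9 tested, 4 had an unadjusted p under 0.05 with a higher level in Ang II vs. Control, namely Pkm-205, Eno1-203, Eno1-211 and Aldoa-206, and the median log2 fold change was 0.40. Over all genes the same held for 26.4% of 2757 retained-intron transcripts, with a median of 0.30, and for 10.5% of 15250 protein-coding transcripts, with a median of 0.06. The shares were 17.0 and 5.87% after quantile normalization and 17.5 and 4.66% after median scaling. Eno1-211 was the only transcript of the listed genes at the study's criterion in this comparison (2.88% of all transcripts) and in that of QDG with Ang II (2.24%), with means of 0.531 FPKM in Control, 4.26 in Ang II and 0.929 with QDG. Ang II 3 stood at 14.574 FPKM, and the Ang II mean without it was 1.69. The class as a whole was not tested across mice, and its part in the Pkm result was not tested.

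The 2 coding transcripts were in a ratio that favoured PKM2. PKM2 made up 79.0, 81.4, 77.5, 69.4 and 83.6% of the coding Pkm level in Control, 80.5, 83.9, 84.6, 84.3 and 86.9% in Ang II, and 83.3, 83.3, 84.0, 78.0 and 85.3% in Ang II + QDG. Control 4 was the lowest and Ang II 5 the highest, and the groups overlapped. The mean was 5.85 percentage points higher in Ang II than in Control (exact two-sided permutation test, p = 0.0397, adjusted p = 0.31 over 9 tests), so that the difference did not pass the correction. Without Control 4 it was 3.65 points (exact permutation p = 0.0714). Under QDG it was −1.25 points against Ang II (exact permutation p = 0.476), and −2.12 to −0.06 points without 1 mouse. Pkm-201 held 39.9 and 42.0% of all Pkm in Ang II 2 and 3, where Pkm-205 held 52.2 and 49.9%, against 57.5 to 69.4% in the other 13 mice. Its share differed by −6.80 points between Ang II and Control (exact permutation p = 0.373), and by −10.3 to −2.93 points without 1 mouse.

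Ldha encodes the A subunit of lactate dehydrogenase, which prevails in glycolytic tissue, and Ldhb the B subunit, which prevails in oxidative tissue. Ldha was at 336.3 ± 31.1 FPKM in Control, 331.1 ± 37.8 in Ang II, then 314.6 ± 18.9 in Ang II + QDG, and Ldhb at 750.3 ± 28.5, 778.9 ± 97.7 and 774.2 ± 59.6 (SD, n = 5). The log2 fold changes in Ang II vs. Control were −0.02 for Ldha (95% interval −0.20 to 0.15) and 0.05 for Ldhb (−0.12 to 0.21). Fold changes of 2 in either direction lay outside both intervals. With QDG against Ang II Ldha was at −0.07, and at −0.12 without Ang II 2 and 5. The ratio of Ldha to Ldhb was below 1 in every mouse, from 0.35 in Ang II 5 to 0.532 in Ang II 4. The lowest after Ang II 5 was Ang II 2, and these are the mice with the lowest Slc12a1. Not every mouse followed that order. Control 4 had the lowest Slc12a1 of the Control mice (68.04 FPKM) and their highest ratio (0.497). Ang II + QDG 3 had the highest Slc12a1 of all mice (230.0 FPKM) and a ratio of 0.411. The log2 ratio differed by −0.07 in Ang II vs. Control, −0.07 in Ang II + QDG vs. Ang II and −0.14 in Ang II + QDG vs. Control (exact two-sided permutation p = 0.603, 0.635 and 0.103), where 5 mice against 5 allow a smallest p of 0.00794. Leaving out 1 mouse gave −0.15 to −0.0 for the first difference. Without Ang II 2 and 5 the first difference was 0.10 and the second −0.23 (exact permutation p = 0.393 and 0.0536), and the part of the nephron segments sampled was not tested.

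Beneath the even Ldha sum, 2 Control mice differed in the values given to its transcripts. Ldha-202, which begins 35 bases after the first start site, had 329.641, 327.985 and 375.614 FPKM in Control 2, 3 and 4 but 27.0 in Control 1 and 36.971 in Control 5, and 283.353 to 362.098 in the 10 infused mice. Control 1 and 5 had instead 87.9 and 87.8% of Ldha in Ldha-201 and Ldha-210, of which Ldha-210 begins at the later start site and Ldha-201 49 bases after it, against at most 10.4% in any other mouse. The sequences upstream of both start sites are printed above. The sum in Control 1 and 5 was 309.1 and 307.2 FPKM, within the range of the other mice. Ldha-201, Ldha-202 and Ldha-210 differ in their starts but end at base 46855626 or 46855627 of chr7. Where transcripts share reads their FPKM values are estimates, and the part of such shared reads in the difference was not tested. When Ldha-202 alone was taken the log2 fold change in Ang II vs. Control was 1.27, and it did not pass (limma adjusted p = 0.357). Leaving out 1 mouse gave 0.708 to 1.645.

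**Figure D4:**
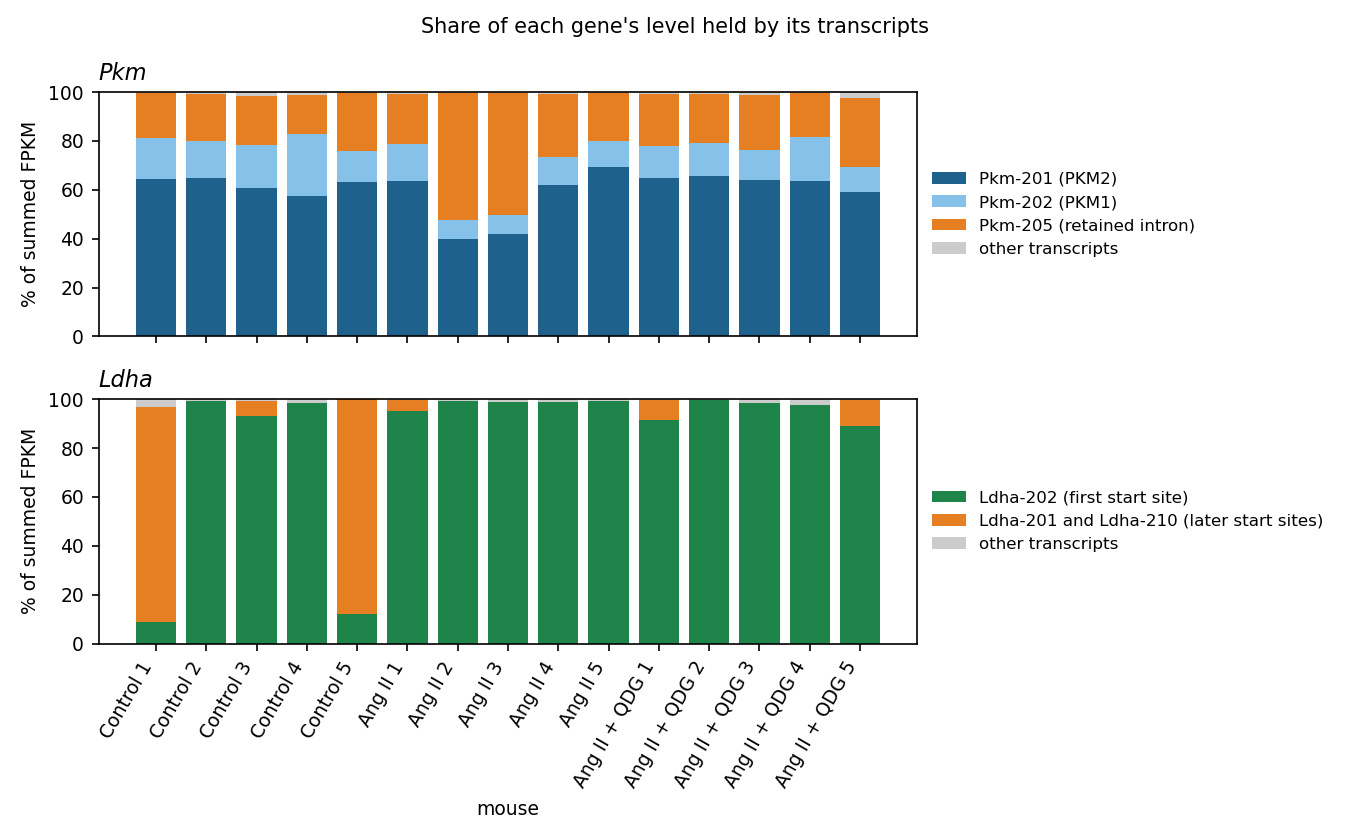
Share of the summed FPKM of Pkm (upper panel) and Ldha (lower panel) held by each named transcript in each of 15 mice; bars add up to 100%. Pkm-205 takes 52.2 and 49.9% of Pkm in Ang II 2 and 3, and the later-start transcripts of Ldha take 87.9 and 87.8% in Control 1 and 5.

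Genes that neighbour glycolysis were described by lists. The 21 other glycolytic enzymes had 1 call up in Ang II vs. Control and 1 down in Ang II + QDG vs. Ang II, both Pgam1, with medians of 0.07 and −0.05. Median scaling turned the first median to −0.02 (6 above 0 and 7 below, beside 9 and 4 in the main fit) and gave −0.04 for the second. Quantile normalization gave 0.07 and −0.01.

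Among 5 enzymes of fructose 2,6-bisphosphate, the activator of phosphofructokinase, 4 were tested. Tigar, a p53-induced phosphatase that lowers this activator, rose in Ang II vs. Control from 1.963 ± 0.365 to 2.781 ± 0.284 FPKM (SD, n = 5; log2 fold change 0.36; limma adjusted p = 0.0457), and the groups did not overlap. The call was lost without any 1 of 12 mice (0.0526 to 0.106; the exceptions were Control 2, Ang II 3 and Ang II + QDG 4), with a pseudocount of 0.1 (0.0503), after quantile normalization (0.116) and after median scaling (0.12), all by limma. The most abundant of the list, Pfkfb2, a bifunctional enzyme that makes and removes the activator, had a mean of 4.911 FPKM and was not called.

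Of 9 glucose transporters, 8 were tested and none was called in any comparison (unadjusted p under 0.05: 0, 1 and 2 genes). The leading one, Slc5a2, the sodium-glucose cotransporter SGLT2 of the early proximal tubule, was at 197.3 ± 19.8, 218.5 ± 50.9 and 211.4 ± 31.7 FPKM (SD, n = 5). Of 10 lactate and pyruvate transporter genes 8 were tested. Slc16a1, which encodes the monocarboxylate transporter MCT1, fell in Ang II + QDG vs. Ang II from 12.4 ± 4.97 to 5.481 ± 0.49 FPKM (SD, n = 5; log2 fold change −0.99, SE 0.19; limma adjusted p = 0.0246). The 5 Ang II + QDG mice, at 5.003 to 6.294, were below all mice of both other groups. Ang II 3 stood at 21.13 FPKM above 9.083 to 11.35 in the others. The call was lost without Ang II 2 or 5 or Ang II + QDG 2, 4 or 5 (limma adjusted p 0.0505 to 0.0573). Bsg, the chaperone of these transporters and the most abundant of the list at 338.0 FPKM, was not called.

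The pyruvate dehydrogenase list, 12 genes all tested, links pyruvate to the citrate cycle. Dlat, the E2 subunit of the complex, rose in Ang II vs. Control from 40.73 ± 1.72 to 47.71 ± 2.25 FPKM (SD, n = 5; log2 fold change 0.22; limma adjusted p = 0.0216) and was at 42.08 ± 2.03 in Ang II + QDG (−0.18 against Ang II; adjusted p = 0.0826). The call was lost without Control 1 or 3 or Ang II 5 (0.0526 to 0.0563), after quantile normalization (0.199) and after median scaling (0.189). Pdha1, the E1 subunit with the highest level of the list at 222.6 FPKM, had a log2 fold change of 0.01 in Ang II vs. Control.

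The gluconeogenesis list holds 8 genes, and all were tested. Fbp2, a fructose-1,6-bisphosphatase, rose in Ang II + QDG vs. Ang II from 10.44 ± 1.58 to 16.39 ± 0.773 FPKM (SD, n = 5; log2 fold change 0.61, SE 0.12; limma adjusted p = 0.0248), with no overlap. The call was lost without Ang II 2 or Ang II + QDG 2, 3, 4 or 5 (0.0513 to 0.0684). In Ang II vs. Control Fbp2 had −0.35 (limma adjusted p = 0.0986), and it was called there as lower after quantile normalization (0.0496), after median scaling (0.0485) and without Control 4 (0.0412). Of the 8 log2 fold changes with QDG against Ang II, 5 were below 0, with a median of −0.12. Pcx, pyruvate carboxylase, went from 208.6 to 88.37 FPKM and met the study's criterion but not the adjusted p (−1.41; limma adjusted p = 0.0998). It was picked out after its value was seen. Pck1, phosphoenolpyruvate carboxykinase, led the list at 1268 FPKM. It was at 802.4 to 1314 FPKM in Control, 980.1 to 2797 in Ang II, then 799.8 to 1424 in Ang II + QDG, and was not called (log2 fold change in Ang II vs. Control 0.65; limma adjusted p = 0.123).

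Of 9 transcriptional regulators of glycolysis 8 were tested, and all 8 log2 fold changes were above 0 in Ang II vs. Control, with a median of 0.11. Of all genes 64.8% were above 0, with a median of 0.08. After quantile normalization 6 were above 0 and after median scaling 7. Esrra, an orphan nuclear receptor that governs genes of energy metabolism, was called and had the highest level of the list. It was at 61.42, 53.11, 52.53, 60.97 and 61.08 FPKM in Control, at 79.32, 96.82, 72.31, 84.95 and 78.17 in Ang II, and at 70.44, 70.3, 67.35, 64.91 and 61.54 in Ang II + QDG. The 3 groups did not overlap, with Control lowest and Ang II highest. Esrra rose in Ang II vs. Control by a log2 fold change of 0.50 (SE 0.08; limma adjusted p = 0.00631), and the call held in each alternative run, leaving out each mouse included. QDG against Ang II gave −0.29 (adjusted p = 0.0709). The alpha subunits of the hypoxia-inducible factors were picked out after their values were seen, and neither was called. Hif1a had a log2 fold change of 0.10 in Ang II vs. Control (limma adjusted p = 0.661) and 0.27 with QDG against Control (0.287). Epas1, which encodes HIF-2 alpha, had 0.29 (limma adjusted p = 0.1; unadjusted 0.0114) and 0.35 (0.135; unadjusted 0.00304).

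Aldoa's pattern over the 15 mice was compared with that of 7279 genes with a mean of at least 5 FPKM, as the root mean square difference between standardised log2 levels, where the median gene was at 1.25. The closest were Emc10 (0.386), Akt1 (0.442) and Ppm1m (0.442). Emc10, an endoplasmic reticulum membrane complex subunit, was at 62.3 ± 2.12, 71.3 ± 2.21 and 67.0 ± 3.48 FPKM in the 3 groups in the order above (SD, n = 5).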

How the data were processed

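Kidney RNA from 15 mice in 3 groups of 5 was sequenced as paired ends after rRNA depletion, and the sources also name a poly(A) step. The authors deposited 1 FPKM value per transcript and mouse, for Ensembl and for assembled transcripts. Their processing notes name the build mm10. The aligner and quantifier are not given in the sources used here, and neither is strand. The unit is named by no source. It was taken as FPKM because value times transcript length gave whole reads, within 0.1, for 98.7 to 98.9% of values under 200 reads. That constant also gave the implied depth. Intervals cover the spread between mice, and FPKM keeps no count error of its own.

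Of 43733 distinct transcripts 40054 were in all files, 11141 of them assembled, without gene name and not assigned here (9.6 to 11.9% of FPKM). Every Control mouse had 41477 listed transcripts and every Ang II or Ang II + QDG mouse 42310. The list thus differed between Control and the infused mice, and its part in the comparisons with Control was not tested. Of 31301 Ensembl identifiers 31244 matched GENCODE release 21. FPKM was summed per gene symbol over the shared transcripts. log2(FPKM + 1) was fitted with limma 3.58.1 in R 4.3.3, estimating each group's mean and letting the eBayes prior variance follow expression, for genes of at least 1 FPKM in at least 5 mice, and likewise for 28812 transcripts. Fold changes are on that log2 scale, which understates low genes. Calls were adjusted p under 0.05 by Benjamini-Hochberg over all features. The fit was tested on simulated data first. Single ratios and shares were compared by exact two-sided permutation tests with scipy 1.17.1, with 9 tests in the family.

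Named genes were all 10 members, transcripts with at least 5% of a gene's level, called genes of the pathway lists (at most 10) and the most abundant gene of each list. Some genes that the lists hold are not reported here. The members and the lists were chosen with earlier results of these data known. Group membership followed the labels, replicate numbers name mice only, and the mice were separate animals. No 2 mice shared more than 0.005% identical values. Alternatives changed the pseudocount, filter, scaling, transcripts summed and variance model, and left out each mouse.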

Additional observations from a re-analysis of the deposited data

Results flagged for a closer look

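In 5 of the 78 groups of 5 mice examined, 1 mouse stood apart from the other 4 by Dixon's 95% criterion (a gap over 0.71 of the range), and chance alone gives about 1 in 20. Control 2 was that mouse 3 times, and always the highest. It had 124.2 FPKM of Pkm against 89.59 to 96.19 in the other Control mice, 512.0 of Aldoa against 475.9 to 485.2, and 17.29 of Slc2a1 against 10.98 to 12.53. In the same mouse Hk1 was also the highest of its group at 35.92 FPKM, while Pgk1 was the lowest at 266.3. Its summed adipocyte markers were the highest of the Control mice, and their part was not tested. Without Control 2, Hk1 joined Aldoa as called in Ang II vs. Control.

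Ang II 3 had 21.13 FPKM of Slc16a1 against 9.083 to 11.35 in the other Ang II mice, and the log2 fold change in Ang II + QDG vs. Ang II was −0.79 without it. Ang II + QDG 4 had the lowest PKM2 share, 78.03% of the coding Pkm level against 83.3 to 85.27%.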

How the results depend on the processing

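Of 573 comparisons of single values with an alternative that kept every mouse, 534 kept direction and side of the threshold, and so did 1069 of 1170 with 1 mouse left out. The causes of the changes below were not tested. No paired analysis was possible because the labels carry no replicate numbers that link mice across groups. The Hk2 to Hk1 ratio could not be computed. FPKM limits the data: it gives no counting error, and Gapdh, Hk1 and Slc2a1 rest on the fewest reads.

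Genes called in Ang II vs. Control numbered 735, 472 after median scaling and 338 to 797 without 1 mouse. Those in Ang II + QDG vs. Ang II numbered 224 (53 to 250 without 1 mouse) and those in Ang II + QDG vs. Control 16 (0 to 110; 80 with all listed transcripts). With all listed transcripts Ang II vs. Control gave 815 and Ang II + QDG vs. Ang II 226. That setting gave a transcript the value 0 in mice whose list lacks it, and the list differed between Control and the infused mice. At the study's criterion the 3 comparisons gave 129, 101 and 90 genes, 308, 199 and 207 with a pseudocount of 0.1, and 76, 66 and 56 with a filter of at least 5 FPKM. Called transcripts numbered 199, 28 and 7. They were 322, 137 and 15 with that filter, 108, 11 and 3 without the variance trend, and 32 to 387, 10 to 46 and 1 to 23 without 1 mouse, and 13 after median scaling in the second. The 1 listed gene called in Ang II vs. Control became 0 after quantile normalization, after median scaling, without the trend, and with leading or protein-coding transcripts alone or without both Ang II 2 and 5 (all chosen after seeing the data), and 0 to 2 without 1 mouse. The 1 called transcript of the listed genes in that comparison, Pkm-205, became 0 with the pseudocount of 0.1, no filter, quantile normalization, median scaling or no trend, and 0 to 1 without 1 mouse.

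Values that changed sign were all small and not called, apart from the Ldha transcripts. In Ang II vs. Control quantile normalization gave −0.012 for Ldhb and −0.049 for Pdha1, and median scaling −0.045 for Ldhb and −0.077 for Pdha1. In Ang II + QDG vs. Ang II quantile normalization gave 0.005 for Ldha, 0.016 for Ldhb, 0.069 for Slc5a2 and 0.058 for Pdha1, and median scaling 0.009 for Ldhb. In Ang II + QDG vs. Control quantile normalization gave −0.017 for Pfkfb2 and 0.009 for Pdha1, and median scaling −0.036 for Ldhb, −0.033 for Dlat and −0.009 for Pfkfb2. With leading transcripts alone Pkm was at −0.005 and Ldha at 1.27 in Ang II vs. Control and Ldha at 1.16 in Ang II + QDG vs. Control, and the log2 ratio of Ldha to Ldhb differed by 1.22 and 1.12. With protein-coding transcripts Pkm was at −0.11. Without both Ang II 2 and 5, chosen after seeing the data, Ldha was at 0.022, Ldhb at −0.077 and their log2 ratio at 0.099 in Ang II vs. Control, and with QDG against Ang II Pkm was at −0.049, Ldhb at 0.119 and Slc2a1 at −0.05.

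Without 1 mouse, log2 fold changes in Ang II vs. Control crossed 0 for Ldha (−0.071 to 0.024), Ldhb (−0.012 to 0.088), Pdha1 (−0.01 to 0.036) and Pkm-201 (−0.18 to 0.21). With QDG against Ang II they did so for Hk1 (−0.19 to 0.014), Pkm (−0.068 to 0.15), Ldhb (−0.045 to 0.054), Slc2a1 (−0.049 to 0.10), Slc5a2 (−0.099 to 0.09), Ldha-210 (−0.31 to 0.67) and the Ldha to Ldhb ratio (−0.14 to 0.015). They did so in Ang II + QDG vs. Control for Gapdh (−0.48 to 0.43), Pgk1 (−0.044 to 0.022), Pfkfb2 (−0.005 to 0.15), Bsg (−0.099 to 0.05) and Pdha1 (−0.026 to 0.017).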

Other observations

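Retained-intron transcripts as a class, of which Pkm-205 is one, were examined after its value was seen. In Ang II vs. Control their median log2 fold change over all genes was 0.30, beside 0.06 for protein-coding transcripts, and 40 of 2757 were called by limma's adjusted p beside 99 of 15250. In Ang II + QDG vs. Ang II the medians were −0.13 and −0.01, and in Ang II + QDG vs. Control 0.19 and 0.04. Quantile normalization gave −0.09 and 0.03 in the former and 0.10 and −0.01 in the latter. Median scaling gave −0.10 and 0.02 in the former and 0.10 and −0.04 in the latter, so that the protein-coding medians changed sign. After quantile normalization the medians in Ang II vs. Control were 0.18 and −0.04, and after median scaling 0.19 and −0.06. The calls there were 21 and 94 after quantile normalization and 26 and 101 after median scaling. Each pair of comparisons shares 1 group of mice, so that they are not independent.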
